A study of Mus musculus with 4 samples.

Results

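The pore-forming alpha1 subunits of voltage-gated calcium channels were followed in cultured mouse cortical neurons depleted of calmodulin. The 8 genes were Cacna1a, Cacna1b, Cacna1c, Cacna1d, Cacna1e, Cacna1g, Cacna1h and Cacna1i, chosen as a gene family. Each was read by 1 probe set of the mouse Gene 1.0 ST array that named no other gene, so all 8 were measured, among 19938 genes in all. Neurons came from newborn (postnatal day 0) pups of a mixed SV129 and C57BL/6 background, described as Syt1 deficient or wild type with no statement of which array came from which. They were infected at day 5 in vitro, and RNA was taken at day 14 to 15. Knockdown cultures (2 samples) received lentiviruses expressing shRNAs against the calmodulin genes. Rescue cultures (2 samples) received the same shRNAs with an shRNA-resistant wild-type calmodulin, and control cultures received control lentiviruses. The deposited values are ratios of each test array to the control array of its repeat, so 0 on the log2 scale is equality with control. Knockdown and rescue of a repeat share that control array. These are primary cultures that can hold several cell types, and neither the promoter driving the shRNAs nor the pooling of pups is given in the labels. Nothing says that the repeats were separate cultures, so p-values cover only how far these samples lie apart, and that may be a technical spread.

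Voltage-gated calcium channels open on depolarization and let calcium into the cell. The alpha1 subunit forms the pore and sets the type of current. L-type channels (Cacna1c, Cacna1d) signal to the nucleus from the cell body and dendrites, P/Q-type (Cacna1a) and N-type (Cacna1b) channels trigger transmitter release at nerve terminals, and R-type channels (Cacna1e) serve dendrites, spines and some terminals. T-type channels (Cacna1g, Cacna1h, Cacna1i) open at more negative voltages and support burst firing. Calmodulin binds an IQ motif in the tail of the L, P/Q, N and R types and drives their calcium-dependent inactivation or facilitation, while T-type channels lack that motif.

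Calm2 and Calm3, which encode calmodulin, were below control in all 4 samples. Calm2, read by 2 probe sets, had log2 ratios of -1.08 and -1.72 in the knockdown samples and of -0.84 and -1.28 in the rescue samples. Calm3 had -1.32 and -2.40 in the knockdown samples and -2.41 and -3.55 in the rescue samples. The labels do not say whether these probe sets detect the resistant transcript. Over all genes the log2 ratios had a standard deviation of 0.349 in knockdown repeat 2 and of 0.232 to 0.243 in the other samples. Since the values are ratios, the arrays give no level of any gene, and neither the neuronal identity of the cultures nor the order of abundance of the channels can be read from them.

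The promoters of the member that changed most, of the next lowest and of the one nearest to control in the knockdown are shown for comparison. RefSeq tables of GRCm38.p6 gave a gene start for 5 of the 8 members (Cacna1b, Cacna1c, Cacna1d, Cacna1e and Cacna1i), with 8 starts in all. Each sequence is the 250 bases before the annotated start, 5′ to 3′ on the gene's strand. Capitals mark TGACG, the core of the cyclic AMP response element bound by CREB, and GGGCGG, the GC box, on either strand (CGTCA and CCGCCC on the other).
Cacna1i (T type, chr15:80286988-80287237, plus strand): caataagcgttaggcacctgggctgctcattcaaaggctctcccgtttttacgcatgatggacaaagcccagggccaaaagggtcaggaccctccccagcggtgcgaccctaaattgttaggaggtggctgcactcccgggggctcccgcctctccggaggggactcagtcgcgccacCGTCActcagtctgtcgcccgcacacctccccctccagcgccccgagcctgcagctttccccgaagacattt
Cacna1e (R type, chr1:154725921-154726170, minus strand): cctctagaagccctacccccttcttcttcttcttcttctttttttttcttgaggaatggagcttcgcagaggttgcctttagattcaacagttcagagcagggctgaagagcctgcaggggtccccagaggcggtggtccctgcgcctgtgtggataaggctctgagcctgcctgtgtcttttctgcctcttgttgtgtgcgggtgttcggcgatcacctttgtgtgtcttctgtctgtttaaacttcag
Cacna1b (N type, chr2:24763153-24763402, minus strand): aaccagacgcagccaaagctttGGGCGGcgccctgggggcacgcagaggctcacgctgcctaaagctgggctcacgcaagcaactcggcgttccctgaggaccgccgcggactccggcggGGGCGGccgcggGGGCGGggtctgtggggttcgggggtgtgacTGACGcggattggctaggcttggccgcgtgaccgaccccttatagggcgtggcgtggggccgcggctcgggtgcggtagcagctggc
The Cacna1i window held 1 TGACG core, 72 bases before the start on the strand opposite to the gene, and 0 GC boxes. The Cacna1b window held 1 TGACG core, 87 bases before the start, and 3 GC boxes, and the Cacna1e window held neither. Of 32851 RefSeq windows of this length, 17.8% held TGACG and 32.7% held GGGCGG. The full element TGACGTCA, which contains the core, was in 0 of the 8 member windows and in 1.55% of all. GC content was 62.4% for Cacna1i, 52% for Cacna1e and 72% for Cacna1b, beside a median of 52.4% over all windows. These matches describe letters in a window and say nothing of binding.

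Depletion of calmodulin was compared with control to ask where the channel transcripts stood once calmodulin was reduced. Cacna1i fell 2.15-fold below control, and it was the only one of the 8 members past the threshold (an adjusted p under 0.05 in limma, a linear model fitted over all genes). The other T-type genes did not share its values: Cacna1g stood 1.58-fold above control and Cacna1h 1.23-fold below. All 5 members of the L, P/Q, N and R types lay below control in both repeats, at means between -0.11 and -0.63 on the log2 scale, without passing.

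Cacna1i (probe set 10425370), whose channel gives the slowest of the T-type currents, stood at 0.461 and 0.467 of control in the 2 knockdown repeats. On the log2 scale these are -1.12 and -1.10. In the rescue it stood at -0.02 and 0.05, so both knockdown samples lay far below both rescue samples, which sat at control. The knockdown mean was -1.11 (SE 0.12, n = 2, 95% interval -1.37 to -0.84, limma adjusted p = 0.0140). Of all genes, 27 had a lower knockdown mean and 16 (0.0802%) were at least 2-fold below control in both repeats, Cacna1i among them. Its call was lost after quantile normalization (-0.96, adjusted p = 0.0555). It was also lost when the knockdown samples were fitted alone (adjusted p = 0.0608), the same fit as with either rescue replicate left out. Over all alternatives its adjusted p ran from 0.000993 to 0.0608.

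Cacna1g (probe set 10389929), the T-type channel of thalamic relay neurons, was the member above control. Its knockdown values were 0.67 and 0.65, which repeat within 0.02, and its rescue values were -0.51 and 0.24. Both knockdown samples were above both rescue samples, and the rescue samples lay on opposite sides of control. Its knockdown mean of 0.66 (SE 0.17, n = 2, 95% interval 0.26 to 1.06) missed the threshold in limma (adjusted p = 0.139; 0.0360 with a replicate block). Of all genes, 106 had a higher knockdown mean. Cacna1g was among 56 genes (0.281%) that reached 1.5-fold above control in each repeat.

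Within the knockdown samples Cacna1g therefore exceeded Cacna1i by 1.79 in repeat 1 and 1.74 in repeat 2 on the log2 scale, as differences of their ratios to control. In the rescue the same difference was -0.48 and 0.19. Cacna1h (probe set 10448925), the third T-type gene, lay between them, with knockdown samples at -0.10 and -0.49 and rescue samples at -0.41 and 0.23. Its samples overlapped between the groups, and its knockdown mean of -0.29 (SE 0.18, adjusted p = 0.450) had a 95% interval from -0.70 to 0.11. The median of the 3 T-type genes was -0.10 and -0.49 in the knockdown, that of Cacna1h, and hides the spread on both sides of it.

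**Figure D1:**
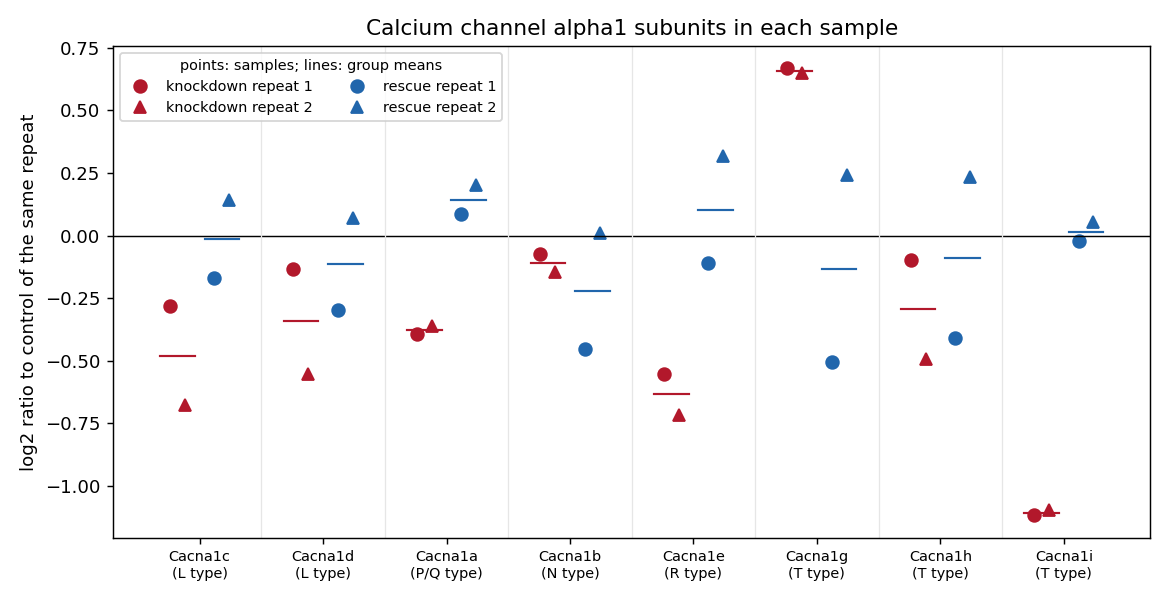
Log2 ratio to the control array of the same repeat (vertical axis) for the 8 alpha1 subunit genes, ordered by channel type. Points are single samples (circles repeat 1, triangles repeat 2; red knockdown, blue rescue) and short lines are means of 2 samples. Cacna1i sits at -1.12 and -1.10 and Cacna1g at 0.67 and 0.65 in the knockdown, and every rescue triangle lies above its circle.

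R-type Cacna1e (probe set 10358928) had the lowest knockdown mean among the channels that carry a calmodulin-binding IQ motif. Its knockdown samples stood at -0.55 and -0.72 and its rescue samples at -0.11 and 0.32, with no overlap between the groups. The knockdown mean was -0.63 (SE 0.14, n = 2, 95% interval -0.96 to -0.31), or 1.55-fold below control. It missed the threshold in limma (adjusted p = 0.0984), which it passed with a replicate block (0.0301). Without knockdown replicate 1 its value was -0.72, in a fit that assumes the lone knockdown sample to vary like the rescue pair.

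The L-type pair ran in parallel. Cacna1c (probe set 10547322), the main neuronal L-type channel, had knockdown values of -0.28 and -0.68 and rescue values of -0.17 and 0.14. Cacna1d (probe set 10418355), the L-type channel that opens at lower voltages, had knockdown values of -0.13 and -0.55 and rescue values of -0.30 and 0.07. Both were lower in knockdown repeat 2 than in repeat 1, as were 6 of the 8 members (46.7% of all genes), and Cacna1c lay below Cacna1d by 0.15 and 0.12 in the knockdown repeats. The groups did not overlap for Cacna1c and did for Cacna1d. Knockdown means were -0.48 for Cacna1c (SE 0.14, adjusted p = 0.176) and -0.34 for Cacna1d (SE 0.15, adjusted p = 0.320). Without knockdown replicate 1, under the same assumption for the lone sample, the value of Cacna1c was -0.68, and without knockdown replicate 2 it was -0.28.

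The presynaptic channels differed in how close they stayed to control. P/Q-type Cacna1a (probe set 10573348) stood at -0.39 and -0.36 in the knockdown, repeating within 0.03, and at 0.09 and 0.20 in the rescue. It was thus below control in both knockdown samples and above it in both rescue samples. Its knockdown mean was -0.38 (SE 0.12, n = 2, 95% interval -0.65 to -0.11, limma adjusted p = 0.184). N-type Cacna1b (probe set 10480492) stood at -0.07 and -0.14 under knockdown and at -0.46 and 0.01 under rescue. Its groups overlapped, and its knockdown mean of -0.11 (SE 0.14, adjusted p = 0.743) was the nearest to control of the 8, with a 95% interval from -0.43 to 0.22.

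By limma's adjusted p, 1 of 8 members passed in the knockdown, where 0.306% of all 19938 genes did. With a replicate block 3 passed (Cacna1e, Cacna1g and Cacna1i), where 5.39% of all genes did. The block takes the spread shared by both samples of a repeat, that of their control array included, out of the error. Its error against control may therefore be too small. At an unadjusted p under 0.05 there were 5 of 8 (Cacna1a, Cacna1c, Cacna1e, Cacna1g and Cacna1i), beside 16% of all genes. Below control in both knockdown repeats were 7 of 8 members, beside 31.1% of all genes, and 1 of 8 was above control in both, beside 30.5%. The median of the member means was -0.36, and that of all genes 0.00.

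Ordered from the lowest knockdown mean, the members were Cacna1i, Cacna1e, Cacna1c, Cacna1a, Cacna1d, Cacna1h, Cacna1b and Cacna1g. The 2 samples of Cacna1i did not overlap those of Cacna1e, nor did those of Cacna1b overlap those of Cacna1g. Every other neighbouring pair overlapped. Among members further apart in the order, both samples of Cacna1e lay below those of Cacna1a, Cacna1d, Cacna1h and Cacna1b, and both samples of Cacna1c and of Cacna1a lay below those of Cacna1b. The other pairs between Cacna1e and Cacna1b overlapped. The gap between the repeats was 0.02 for Cacna1i and Cacna1g and 0.03 for Cacna1a, and between 0.39 and 0.42 for Cacna1c, Cacna1d and Cacna1h. Its median over all genes was 0.20.

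**Figure D2:**
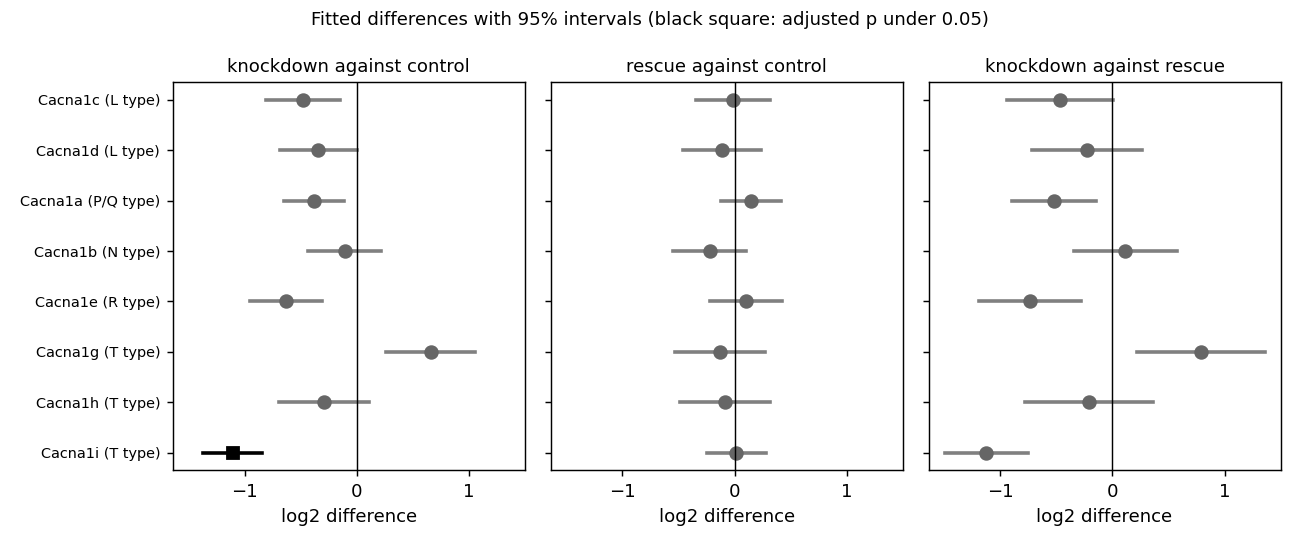
Fitted log2 differences (horizontal axis) with 95% intervals for each member in the 3 comparisons, from limma over all 19938 genes with 2 samples a group. The black square marks the member with an adjusted p under 0.05, Cacna1i in the knockdown against control, at -1.11 with an interval from -1.37 to -0.84.

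Rescue was compared with control to ask where the channels stood when shRNAs and resistant calmodulin were delivered together. Member means lay between -0.22 (Cacna1b) and 0.14 (Cacna1a), and Cacna1i, the member that had fallen in the knockdown, had a mean of 0.02 (SE 0.12, n = 2, 95% interval -0.25 to 0.28, limma adjusted p = 0.986). In limma 0 of 8 members passed, as did 0% of all genes, and 0 of 8 passed with a replicate block, where 0.125% of all genes did. At an unadjusted p under 0.05 there were also 0 of 8, beside 7.44% of all genes. For Cacna1g the mean was -0.13 with a 95% interval from -0.53 to 0.27, and for Cacna1e it was 0.10 with one from -0.22 to 0.42. The samples of each neighbouring pair in the order of means overlapped. Both samples of Cacna1a lay above those of Cacna1b, Cacna1d and Cacna1i, and every other pair of members overlapped.

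The rescue repeats stood apart from each other across the family. All 8 members were higher in repeat 2 than in repeat 1, beside 48.7% of all genes, and 7 of 8 (all but Cacna1a) lay below control in repeat 1 and above it in repeat 2, beside 22.1%. The difference between the rescue repeats was largest for Cacna1g (0.75) and Cacna1h (0.64) and smallest for Cacna1i (0.07) and Cacna1a (0.11). The median gap between rescue repeats was 0.40 for the members and 0.19 for all genes. Leaving out 1 rescue replicate turned the sign of the rescue value for those 7 members.

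Knockdown was compared with rescue because both carried the shRNAs, and within a repeat the shared control array cancels from the difference. Only the fit with a replicate block uses that pairing. Cacna1i was lower in the knockdown by much the same amount in both repeats, at -1.10 and -1.15 on the log2 scale. Its mean difference of -1.12 (SE 0.16, n = 2 per group, 95% interval -1.50 to -0.75), or 2.18-fold, missed the threshold in limma (adjusted p = 0.0834). It passed with a replicate block (0.0169). The difference was -1.11 without knockdown replicate 1 and -1.13 without knockdown replicate 2, where the spread comes from the rescue pair alone. Cacna1g was higher in the knockdown by 1.17 and 0.41 (mean 0.79, SE 0.25, limma adjusted p = 0.467; 0.138 with a replicate block). Cacna1e was at -0.44 and -1.03 (mean -0.74, SE 0.20, limma adjusted p = 0.366; 0.125 with the block).

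Cacna1a was lower in the knockdown than in the rescue by nearly equal amounts, at -0.48 and -0.56 (mean -0.52, SE 0.16, n = 2 per group, limma adjusted p = 0.469; 0.186 with a replicate block). Cacna1c was at -0.11 and -0.82. Cacna1b (0.38 and -0.15), Cacna1d (0.17 and -0.62) and Cacna1h (0.31 and -0.73) lay on opposite sides of 0 in the 2 repeats, so their direction is not settled by these samples. For each of the 8 members the difference was lower in repeat 2 than in repeat 1, beside 44% of all genes.

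Both knockdown samples lay below both rescue samples for 4 of 8 members (Cacna1a, Cacna1c, Cacna1e and Cacna1i), beside 15.1% of all genes, and above them for 1 (Cacna1g), beside 16.5%. In limma 0 of 8 members passed, where 0.0702% of all genes did. At an unadjusted p under 0.05 there were 4 of 8 (Cacna1a, Cacna1e, Cacna1g and Cacna1i), beside 6.82%. With a replicate block 1 passed (Cacna1i), beside 0.617%.

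**Figure D3:**
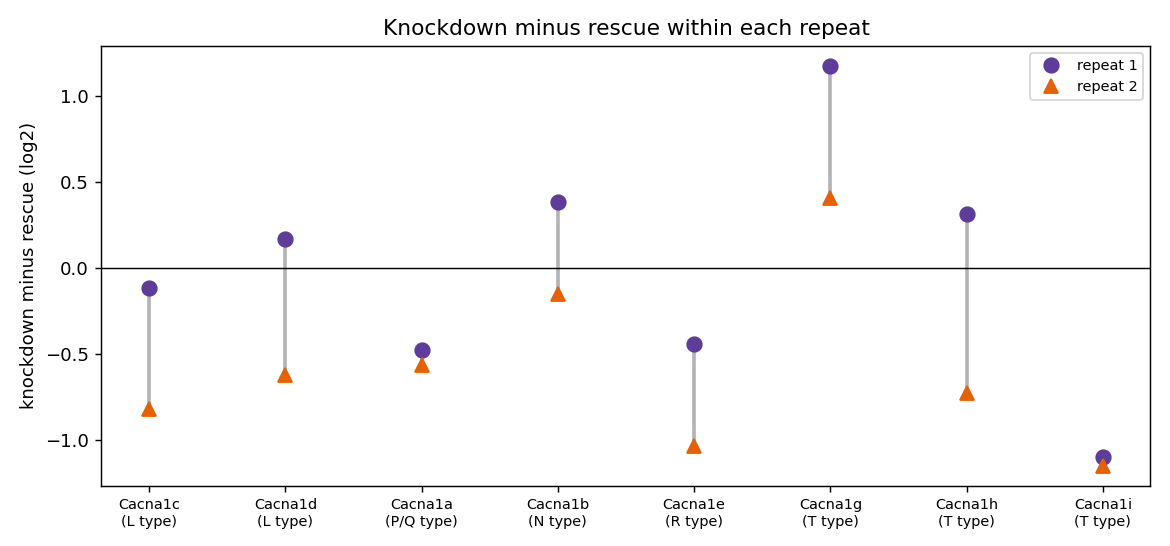
Knockdown minus rescue on the log2 scale (vertical axis) for each member in repeat 1 (circles) and repeat 2 (triangles), with a grey line joining the repeats. Cacna1i lies at -1.10 and -1.15 and Cacna1g at 1.17 and 0.41, while Cacna1b, Cacna1d and Cacna1h lie on both sides of 0.

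By channel type, the values in the knockdown repeats were -0.21 and -0.61 for the L type (the median of its pair of genes), -0.39 and -0.36 for P/Q, -0.07 and -0.14 for N and -0.55 and -0.72 for R. The T type had no common value, as its genes ran from -1.12 to 0.67 in repeat 1 and from -1.10 to 0.65 in repeat 2. In the rescue the L type stood at -0.23 and 0.11. The T-type genes ran from -0.51 to -0.02 in rescue repeat 1 and from 0.05 to 0.24 in repeat 2, a narrower range than in the knockdown. With 1 to 3 genes a type, differences between types were not tested.

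Genes with the nearest values over the 4 samples were found by Euclidean distance between log2 ratios. For Cacna1i they were Fam131a (distance 0.15; -0.97 and -1.06 in the knockdown, -0.04 and 0.08 in the rescue), Wnt7b (0.22) and Prmt8 (0.30). For Cacna1g they were L3mbtl1 (0.20), Fam189a2 (0.20) and Eva1a (0.28). Cacna1e lay nearest to Kalrn (0.09), Rbfox3 (0.10), the nuclear marker of mature neurons, and Zik1 (0.11). Cacna1d lay nearest to Rapgef2, Zfp101 and Syt14 (0.09 to 0.13), and Cacna1c to Auts2, Efnb2 and Serf1 (0.11 each). Those of Cacna1a were Utp4, Zfp365 and Strn (0.04 to 0.09), those of Cacna1b Hectd3, Ms4a4a and Sdk1 (0.06 to 0.08), and those of Cacna1h Exd2, Zfp101 and Herc1 (0.12 to 0.15). Members with values near 0 have many such neighbours, so a small distance there says little.

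Auxiliary subunits sit beside the pore and govern its trafficking and gating. Alpha2delta subunits raise the surface expression of the pore and include the target of gabapentin. In limma 0 of 4 passed in each comparison, and in the knockdown 2 had an unadjusted p under 0.05 (Cacna2d2 and Cacna2d3), beside 16% of all genes. Cacna2d3 stood at -0.32 and -0.64 in the knockdown (mean -0.48, SE 0.16, adjusted p = 0.202; 0.0401 with a replicate block). Cacna2d2 stood at -0.13 and -0.53 there, and Cacna2d1 at -0.06 and -0.47. In the rescue Cacna2d1 was at 0.12 and 0.89, the latter the highest single value of the alpha2delta list. Cacna2d4 lay at 0.00 and 0.35 in the knockdown.

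Beta subunits bind the intracellular loop of the L, P/Q, N and R types and carry them to the membrane. The 3 measured lay below control in both knockdown repeats, beside 31.1% of all genes. In limma 0 passed, with 1 (Cacnb1) at an unadjusted p under 0.05, beside 16% of all genes. Cacnb1 stood at -0.42 and -0.45 (mean -0.44, SE 0.12, n = 2, limma adjusted p = 0.143), Cacnb4 at -0.43 and -0.01 and Cacnb2 at -0.11 and -0.07. Their rescue means lay between -0.05 and 0.05.

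Gamma subunits include the TARP proteins, which carry AMPA receptors to synapses. Of 7 measured, 0 passed in limma in the knockdown, beside 0.306% of all genes, and 4 had an unadjusted p under 0.05, beside 16%. Cacng3 was lowest, with knockdown samples at -1.18 and -0.64 and rescue samples at 0.35 and 0.80. Its knockdown mean was -0.91 (SE 0.17, n = 2, adjusted p = 0.0737; 0.00568 with a replicate block), and its difference from the rescue was -1.48 (adjusted p = 0.121; 0.00740 with the block). Cacng8 stood at -0.47 and -0.63 in the knockdown (mean -0.55, adjusted p = 0.103; 0.0341 with the block). The medians of knockdown means were -0.30 for alpha2delta, -0.22 for beta and -0.36 for gamma subunits, beside 0.00 for all genes. The L-type genes of retina and skeletal muscle, Cacna1f and Cacna1s, had means of 0.23 and 0.10.

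Channel partners were taken as 28 measured genes of active zone scaffolds, calcium-binding proteins and small GTPases that bind the channels. In limma 0 of 28 passed in each comparison, with 12 at an unadjusted p under 0.05 in the knockdown, 4 in the rescue and 9 between the groups, beside 16%, 7.44% and 6.82% of all genes. With a replicate block 8 were lower and 0 higher in the knockdown: Rims1, Rimbp2, Erc1, Erc2, Bsn, Stx1a, Cabp7 and Rem2. Of all genes 3.48% were lower and 1.91% higher in that fit. Below control in both knockdown repeats were 15 of 28, beside 31.1% of all genes, and 7 were above it in both, beside 30.5%. Erc2, an active zone scaffold, stood at -0.74 and -1.60 in the knockdown (mean -1.17, SE 0.19, n = 2, adjusted p = 0.0603). It was also below control in the rescue, at -0.65 and -0.57. Rimbp2, which ties channels to RIM proteins, stood at -0.68 and -1.24 in the knockdown (mean -0.96, SE 0.15, adjusted p = 0.0564). Its rescue values were -0.25 and -0.08. The median of the 28 knockdown means was -0.18.

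Rem2, a small GTPase that inhibits high-voltage channels, was the partner that differed most between the groups. Its knockdown samples stood at -0.999 and -0.36 and its rescue samples at 0.79 and 0.81. The difference was -1.49 (adjusted p = 0.106 in limma; 0.0134 with a replicate block). Cabp1, a calmodulin-like protein that can take its place on L-type channels, stood at -0.01 and 0.57 in the knockdown. Of 9 genes of related channels (Nalcn and its partners Unc79 and Unc80, Catsper and Tpcn genes), 0 passed in limma. In the knockdown 1 (Unc79) had an unadjusted p under 0.05, beside 16% of all genes. The sodium leak channel Nalcn had a knockdown mean of -0.09, and its partner Unc79 was at -0.38 and -0.56.

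**Figure D4:**
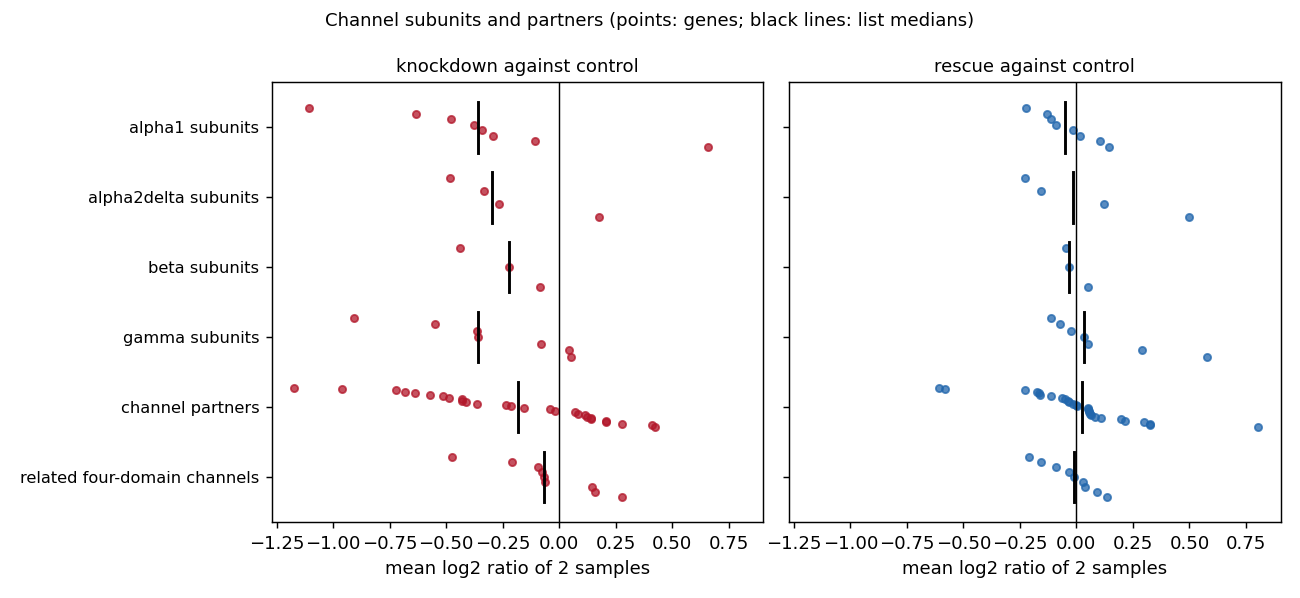
Mean log2 ratio of 2 samples (horizontal axis) for each gene of 6 lists, in the knockdown (red) and in the rescue (blue), with black lines at list medians. The list labelled related four-domain channels also holds the Catsper and Tpcn genes. In the knockdown the medians were -0.36 for alpha1, -0.30 for alpha2delta, -0.22 for beta and -0.36 for gamma subunits, and -0.18 for partners.

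Of 14 measured genes that carry the calcium signal of L-type channels onward, Calm2 fell and 0 rose in the knockdown in limma, beside 0.306% of all genes. With a replicate block 6 were lower (Calm2, Calm3, Camk2a, Camk4, Camkk2 and Ppp3ca) and 1 higher, beside 3.48% and 1.91% of all genes. Calm2 and Calm3 encode calmodulin, which the shRNAs were directed against, so their fall is no result about this list. Among them Camk2a, a kinase activated by calmodulin, stood at -0.44 and -1.10, and Camk4, its nuclear relative, at -0.44 and -0.98. In the rescue Camk2a stood at -0.42 and -0.29 and Camk4 at -0.09 and -0.04. The higher one was Camk2g, at 0.46 and 0.62 (mean 0.54, SE 0.12, n = 2, limma adjusted p = 0.103). Creb1 itself, the transcription factor at the end of this path, had a mean of -0.09. Ppp3ca, a catalytic subunit of calcineurin, was low in every sample, at -0.82 and -1.66 under knockdown and -1.42 and -1.35 under rescue. Ppp3cb, another catalytic subunit, stood at -0.18 and -0.53 under knockdown and 0.01 and 0.09 under rescue.

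Cell type markers moved in the same samples. Of 7 excitatory neuron markers 6 lay below control in both knockdown repeats, beside 31.1% of all genes, with list medians of -0.44 and -0.78. Of 8 general neuron markers 5 did (-0.11 and -0.26). All 9 astrocyte markers lay above control in both, beside 30.5% of all genes, with medians of 0.28 and 0.34. Interneuron markers had medians of 0.14 and -0.57 under knockdown and -0.33 and -0.56 under rescue. Medians in the knockdown were 0.04 and 0.07 for 8 oligodendrocyte lineage, -0.46 and -0.01 for 9 microglia, -0.06 and 0.32 for 7 endothelial and -0.02 and 0.49 for 8 fibroblast and mural markers. The astrocyte and excitatory medians in the rescue were -0.08 and -0.03, and -0.06 and -0.17. In limma 0 markers passed. At an unadjusted p under 0.05 in the knockdown were 6 of 7 excitatory and 6 of 9 astrocyte markers, beside 16% of all genes. So were 4 of 10 interneuron, 3 of 8 general neuron and 2 of 8 fibroblast and mural markers, and 0 of the rest. The excitatory, interneuron and general neuron markers among them went in both directions. In the rescue 6 of 10 interneuron, 3 of 9 microglia, 2 of 9 astrocyte and 1 of 7 excitatory markers were under it, beside 7.44% of all genes. There it was 2 of 8 for each of the oligodendrocyte lineage, fibroblast and mural, and general neuron lists. With a replicate block 4 excitatory, 3 interneuron and 1 general neuron marker were lower and 1 excitatory and 3 astrocyte markers higher, beside 3.48% and 1.91% of all genes. Fewer cells of a type and less RNA per cell cannot be told apart here, and the part of cell makeup in the channel values was not tested.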

How the data were processed

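The deposited table holds, per the series design text, a ratio of each test array to the control array of the same repeat, made by the authors as a linear fold value. Background correction, summarization and normalization are not stated there or in the labels. Intensities were not used, so probes near background could not be recognised. Precision is limited by the number of arrays. Of 35399 probe sets, 21789 had exactly 1 gene symbol in the platform annotation. Ratios were taken to log2 and averaged per symbol (19938 genes).

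Tests used limma 3.58.1 (R 4.3.3; lmFit, eBayes, two-sided) with a coefficient per group, no intercept, 2 residual and 6.11 prior degrees of freedom. Benjamini-Hochberg adjustment ran over all genes (threshold 0.05). Without a block for the repeat, the spread of a control array enters only as it differs between repeats. Same-numbered samples share a repeat day in the labels, so a replicate block was also fitted (their deviations from group means correlated at 0.305 across genes). With the block that spread leaves the error, so the error of comparisons with control may be too small. Members and lists were chosen with earlier results of these data known. All members and their 3 nearest genes are named. Genes of the subunit, partner and signalling lists were named from those that passed with or without the block or were among the 3 largest means of a list, and not each such gene is named. Marker genes were only counted as markers. Camk2a is counted in both the signalling and the excitatory list and named for the former, and Rbfox3 is named as a nearest gene. Cabp1, Nalcn, Creb1 and Ppp3cb were added for their role after their values were seen. Of 151 list entries, 10 were not analysed here, Cacnb3 and Cacng6 among them.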

Additional observations from a re-analysis of the deposited data

Results flagged for a closer look

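Cacna1a was the member whose samples all moved one way in the knockdown (-0.39 and -0.36) and all the opposite way in the rescue (0.09 and 0.20). The mean difference was -0.52 on the log2 scale. It was tested in limma and missed the threshold (adjusted p = 0.469; 0.186 with a replicate block). Within a repeat both groups share the control array.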

How the results depend on the processing

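Of 256 values of single members under an alternative, 236 kept their direction and their side of the threshold, 7 came to pass it, 4 no longer did and 9 turned sign, all 9 with a rescue replicate left out. These alternatives are not independent. For the knockdown against control, leaving out either rescue replicate returns the fit of the knockdown samples alone, as a lone sample adds no spread. The same loss for Cacna1i is therefore counted more than once. Each member has 1 probe set, so averaging linear ratios or testing each probe set could not change its estimate. In the knockdown against control 1 member passed, as did 61 of 19938 genes. With a replicate block 3 passed (1074 genes), after quantile normalization 0 (20 genes) and with the knockdown samples fitted alone 0 (12 genes). Which members passed changed with the replicate left out, and so did the number of all genes that passed. Cacna1i no longer passed without either rescue replicate, which is the fit of the knockdown samples alone. With single replicates left out, the knockdown values ran from -0.68 to -0.28 for Cacna1c, -0.72 to -0.55 for Cacna1e and -1.12 to -1.10 for Cacna1i. The cause of the other changes was not tested. The count stayed at 1 under median centring, averaging of linear ratios, testing of each probe set and omission of predicted genes. In the knockdown against rescue, where 0 passed in limma (4 at an unadjusted p under 0.05), 1 passed with a replicate block (Cacna1i), beside 0.617% of all genes. Whether Cacna1i passed there changed with the replicate left out. Its difference then ran from -1.16 to -1.09. In the rescue 0 members passed under each alternative run. With 1 replicate left out, that group is a single sample, assumed to vary like the other group. The rescue values then ran from -0.46 to 0.0089 for Cacna1b, -0.17 to 0.14 for Cacna1c, -0.30 to 0.071 for Cacna1d, -0.11 to 0.32 for Cacna1e, -0.51 to 0.24 for Cacna1g, -0.41 to 0.23 for Cacna1h and -0.022 to 0.053 for Cacna1i. The knockdown against rescue ran from -0.12 to 0.35 for Cacna1b and from -0.53 to 0.12 for Cacna1h.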
